A study of Mus musculus with 9 samples.

Results

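The mesothelial genes described here are Msln, Upk3b, Wt1, Lrrn4, Upk1b and Muc16, taken by name as genes of the mesothelium that covers the thymic capsule. Their probe sets were those annotated to exactly 1 gene symbol, and this gave 10 of the 34945 probe sets with a single symbol and all 6 of the 6 genes, out of 18193 genes. Values were measured on Affymetrix mouse arrays in thymus depleted of cells bearing CD45, the surface protein of white blood cells, from female C57BL/6J mice aged 6 to 8 weeks. There were 3 groups of 3 arrays: untreated mice, mice killed at day 4 after irradiation and mice killed at day 7 after irradiation. Both irradiated groups received 550 cGy from a cesium source without transplanted blood-forming cells. The labels call this SL-TBI, which is usually read as sublethal total body irradiation. Material of several mice was pooled for a sample, and the labels do not say whether the replicates of a group were separate pools, so the p-values measure the spread between samples, which may be technical.

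The mesothelium is a flat sheet of cells of mesodermal origin that lines the body cavities and covers the organs in them. It secretes a lubricating film, carries microvilli and keratins like an epithelium, and yet expresses vimentin like a mesenchymal cell. In development, mesothelial cells can leave the sheet and contribute fibroblasts and mural cells to the organ beneath. Msln encodes mesothelin, a surface protein anchored by lipid, and Muc16 encodes the large membrane mucin that binds it. Upk1b and Upk3b belong to the uroplakins, membrane proteins best known from the urinary bladder. Wt1 encodes a zinc finger transcription factor required for the mesothelium of several organs. Lrrn4 encodes a membrane protein with leucine-rich repeats, and its function in the mesothelium is less well known. On GRCm38.p6 the RefSeq genes span chr17:25748613-25754378 for Msln, chr9:18495445-18674821 for Muc16, chr16:38773182-38800203 for Upk1b, chr5:136038496-136044993 for Upk3b, chr2:105126529-105173614 for Wt1 and chr2:132866686-132894010 for Lrrn4.

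All values below are deposited log2 expression values, on which a difference of 1 is a doubling. A value of 4 was taken as the detection level, and each gene was read by its probe set with the highest mean. All 6 genes reached that level on all 3 untreated arrays, so none entered the test only through the irradiated groups. A gene is said to have risen or fallen where limma's adjusted p over all 10937 tested genes was below 0.05. Across probe sets, which are not independent replicates, the Pearson correlation between arrays of a group was 0.987 to 0.993 for the untreated group and 0.995 to 0.996 for both irradiated groups. The thymocyte signal of the fraction differed between groups. At both times 10 of 10 tested thymocyte genes fell, beside 21.4% of all tested genes at day 4 and 22.0% at day 7. Their mean log2 level per array was 9.92 to 10.42 before irradiation, then 3.46 to 3.83 on the day 4 arrays and 7.21 to 7.36 on the day 7 arrays. Among these 10, Cd4 and Rag2 reached the detection level on the 3 untreated arrays only, so their falls add no support. Ptprc, the gene of CD45 itself, read 12.25, 11.96 and 12.45 in untreated, 4.18, 4.52 and 5.22 at day 4, and 9.63, 9.26 and 9.64 at day 7. Despite the depletion, its signal was thus still strong on the untreated arrays. The 3-prime minus 5-prime value of the Actb control probe sets, a sign of RNA quality, averaged 2.28 ± 0.15 in untreated, 3.13 ± 0.17 at day 4 and 2.51 ± 0.21 at day 7 (log2, SD, n = 3). In such a bulk measurement, more cells of a type and more RNA per cell cannot be told apart. The part of the lower thymocyte signal, of cell composition and of RNA quality in the values below was not tested.

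Of the 6 genes, 5 rose at day 4 and the same 5 rose at day 7, all but Msln. At day 4 their differences from untreated lay between 1.01 for Upk1b and 1.51 for Wt1, and at day 7 between 1.83 for Muc16 and 2.18 for Lrrn4. The share of all tested genes that rose was 41.8% at day 4 and 32.1% at day 7, so rises were common in both comparisons. In either direction 63.2% of tested genes were called at day 4 and 54.1% at day 7, and 21.4% and 22.0% fell. Both comparisons share the untreated arrays. The median difference of the 6 genes was 1.18 at day 4, beside 0.20 over all tested genes, and 1.93 at day 7, beside 0.09. At day 4 the calls depended on the scale. With each array centred on 10 fibroblast genes, 0 of the 6 were higher, beside 548 of all 10937 tested genes. Where so few genes rose, 0 of 6 says little about these genes in particular. Without Thy1 among those 10, 232 of all tested genes were higher, and the differences of Upk3b, Lrrn4, Upk1b and Muc16 turned negative.

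**Figure D1:**
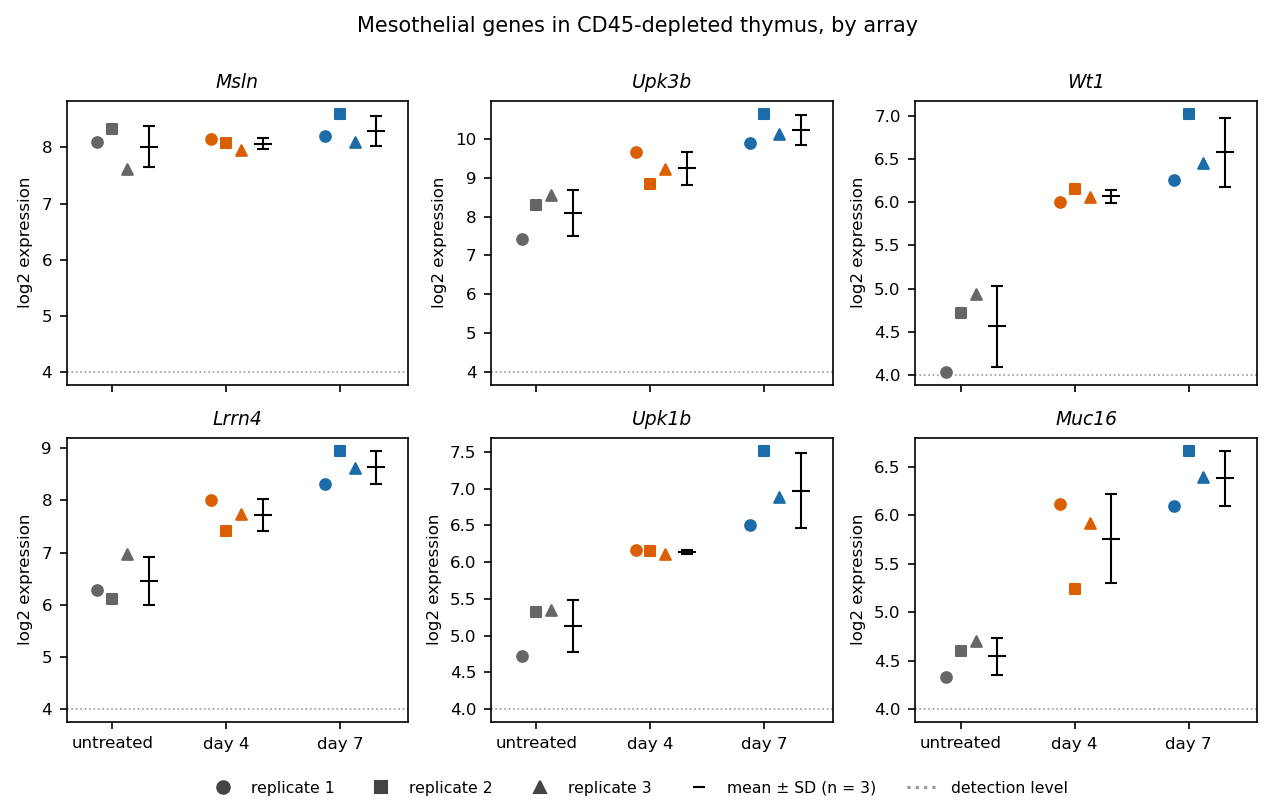
Log2 expression of the 6 mesothelial genes on each array (vertical axis, its range differs between genes) in untreated, day 4 and day 7 samples, with the mean and SD of 3 arrays beside the points and the detection level of 4 as a dotted line. For Upk3b, Wt1, Lrrn4, Upk1b and Muc16 every irradiated array lies above every untreated array on the deposited scale, whereas Msln stays between 7.62 and 8.60 throughout.

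Upk3b and Lrrn4 had the largest differences at day 7. Upk3b read 7.43, 8.30 and 8.56 on the untreated arrays, 9.67, 8.83 and 9.24 at day 4, and 9.90, 10.65 and 10.12 at day 7. Each group thus lay wholly above the one before it. The level at day 4 was 2.21-fold that of untreated (difference 1.15, SE 0.33, adjusted p = 0.0132 by limma), but the adjusted p was 0.0506 without day 4 replicate 1, the highest array of its group, and 0.0536 when dim genes were kept in the test. At day 7 it was 4.37-fold that of untreated, with a 95% confidence interval of 2.61 to 7.29 (difference 2.13, SE 0.33, adjusted p = 7.6e-04 by limma). Its other probe set gave differences of 1.31 at day 4 and 2.43 at day 7.

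Lrrn4 showed the same order of groups. It read 6.29, 6.10 and 6.97 in untreated, 8.01, 7.41 and 7.73 at day 4, and 8.32, 8.95 and 8.62 at day 7. The difference was 1.26 at day 4 (SE 0.25, adjusted p = 0.00221 by limma) and 2.18 at day 7 (SE 0.25, adjusted p = 1.98e-04), which is 4.53-fold with an interval of 3.04 to 6.75.

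RefSeq promoter sequences were at hand for only 3 of the 6 genes, Upk3b, Lrrn4 and Muc16, and these are shown. All 3 rose at both times, as did Wt1 and Upk1b. Each runs from 250 bases before to 50 bases after an annotated start on GRCm38.p6, 5′ to 3′ on the strand of the gene. Upk3b lies on chr5:136038246-136038545 (plus strand), Lrrn4 on chr2:132880813-132881112 (minus strand) and Muc16 on chr9:18674554-18674853 (minus strand). The starts used for Lrrn4 and Muc16 lie 13148 and 218 bases inside the span that RefSeq gives these genes, so they are not their outermost starts. Capitals mark matches, on either strand, to GGAATG, the element bound by TEAD factors, and to GNGTGGGNG, an element shared by WT1 and the EGR factors.
Upk3b: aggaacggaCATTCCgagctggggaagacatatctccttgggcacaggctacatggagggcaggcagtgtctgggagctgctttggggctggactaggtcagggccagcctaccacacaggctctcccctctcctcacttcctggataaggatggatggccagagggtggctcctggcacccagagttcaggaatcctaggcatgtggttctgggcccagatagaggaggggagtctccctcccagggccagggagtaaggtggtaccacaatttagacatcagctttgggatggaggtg
Lrrn4: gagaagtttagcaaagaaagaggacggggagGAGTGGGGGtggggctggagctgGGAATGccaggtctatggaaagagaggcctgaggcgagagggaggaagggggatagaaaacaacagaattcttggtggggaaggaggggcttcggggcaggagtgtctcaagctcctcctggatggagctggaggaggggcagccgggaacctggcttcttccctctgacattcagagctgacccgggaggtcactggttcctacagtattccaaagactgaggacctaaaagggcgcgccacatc
Muc16: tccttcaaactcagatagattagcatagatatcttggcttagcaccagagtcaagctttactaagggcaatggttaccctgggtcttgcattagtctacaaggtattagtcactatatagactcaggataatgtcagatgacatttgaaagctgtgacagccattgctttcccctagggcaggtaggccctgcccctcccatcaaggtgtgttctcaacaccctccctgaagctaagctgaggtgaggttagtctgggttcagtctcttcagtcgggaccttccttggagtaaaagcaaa

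The TEAD element occurred once in the Upk3b and once in the Lrrn4 sequence, and the WT1 and EGR element once in that of Lrrn4. Neither was found in the Muc16 window, and the GC box GGGCGG was found in 0 of the 3. Of 32851 mouse promoters of the same length, 14.7% held the TEAD element, 14.3% the WT1 and EGR element and 35.7% the GC box, on either strand. The marked letters are matches and not known sites.

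Wt1, the transcription factor gene, had 1 untreated array just above the detection level. It read 4.03, 4.72 and 4.94 in untreated, 6.00, 6.15 and 6.06 at day 4, and 6.26, 7.02 and 6.45 at day 7. The day 4 arrays lay close together and above every untreated array. The rise was 2.84-fold at day 4 (difference 1.51, SE 0.25, adjusted p = 7.62e-04 by limma) and 4.04-fold at day 7, with an interval of 2.72 to 5.99 (difference 2.01, SE 0.25, adjusted p = 2.71e-04). The suffix of its probe set marks probes that match several transcripts, so splice forms of Wt1 were not told apart.

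Upk1b was read by 4 probe sets. The brightest gave 4.72, 5.32 and 5.35 in untreated, 6.17, 6.15 and 6.11 at day 4, and 6.51, 7.52 and 6.89 at day 7. The differences were 1.01 at day 4 (SE 0.25, adjusted p = 0.00676 by limma) and 1.84 at day 7 (SE 0.25, adjusted p = 4.12e-04). The suffix of that probe set, x_at, marks probes that may also bind other sequences. Another Upk1b probe set without that mark and of nearly the same level gave 1.39 at day 4 and 2.22 at day 7. The other 2 Upk1b probe sets reached the detection level on 1 and 0 of the 3 untreated arrays and entered the test only through irradiated arrays, so they add no support. The brighter of them read 3.24, 3.73 and 4.30 in untreated, 4.94, 4.55 and 4.96 at day 4, and 5.58, 6.06 and 5.71 at day 7. The dimmest read 4.37, 4.89 and 4.56 at day 7 and was below the level on all other arrays.

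Muc16 read 4.33, 4.60 and 4.70 in untreated, 6.11, 5.23 and 5.92 at day 4, and 6.09, 6.66 and 6.40 at day 7. Here the day 4 and day 7 arrays overlapped, while both groups lay above untreated. The rise was 2.32-fold at day 4 (difference 1.21, SE 0.23, adjusted p = 0.00174 by limma) and 3.57-fold at day 7, with an interval of 2.47 to 5.15 (difference 1.83, SE 0.23, adjusted p = 2.98e-04).

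Msln, the gene of mesothelin, read 8.09, 8.33 and 7.62 in untreated, 8.15, 8.08 and 7.96 at day 4, and 8.20, 8.60 and 8.09 at day 7. All 3 groups overlapped. The difference was 0.05 at day 4 (95% confidence interval -0.39 to 0.48, adjusted p = 0.846 by limma) and 0.28 at day 7 (interval -0.15 to 0.72, adjusted p = 0.239), so the interval put the day 7 level between 0.90-fold and 1.65-fold that of untreated. The change of each other gene was set beside that of Msln array by array, in 15 comparisons. At day 7 against untreated the differences in change were 1.84 for Upk3b, 1.73 for Wt1, 1.90 for Lrrn4, 1.56 for Upk1b and 1.55 for Muc16, and the 2 groups of arrays did not overlap for any of these 5. The exact two-sided permutation p was 0.1 for each, the smallest that 3 arrays against 3 can give, and 0.136 after adjustment over the 15. At day 4 against untreated the differences in change were 1.46 for Wt1, 0.96 for Upk1b and 1.17 for Muc16, without overlap (p = 0.1 by the exact permutation test), and 1.10 for Upk3b and 1.22 for Lrrn4, with overlap (p = 0.2 by the same exact test, adjusted p = 0.231). Between day 7 and day 4 the exact p was 0.1 for Upk3b, Lrrn4 and Upk1b and 0.3 for Wt1 and Muc16. Untreated replicate 3 had the lowest Msln value and the highest Upk3b, Wt1, Lrrn4, Upk1b and Muc16 values of its group, and without it the Msln difference at day 4 was -0.15 (adjusted p = 0.441 by limma), as it was -0.060 with centring on all tested genes and -0.33 on cortical epithelial genes. On that array the mean of 9 medullary epithelial genes was also lower, at 7.26, against 8.23 and 8.45 on the other untreated arrays. The part of medullary cells in the Msln value was not tested.

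**Figure D2:**
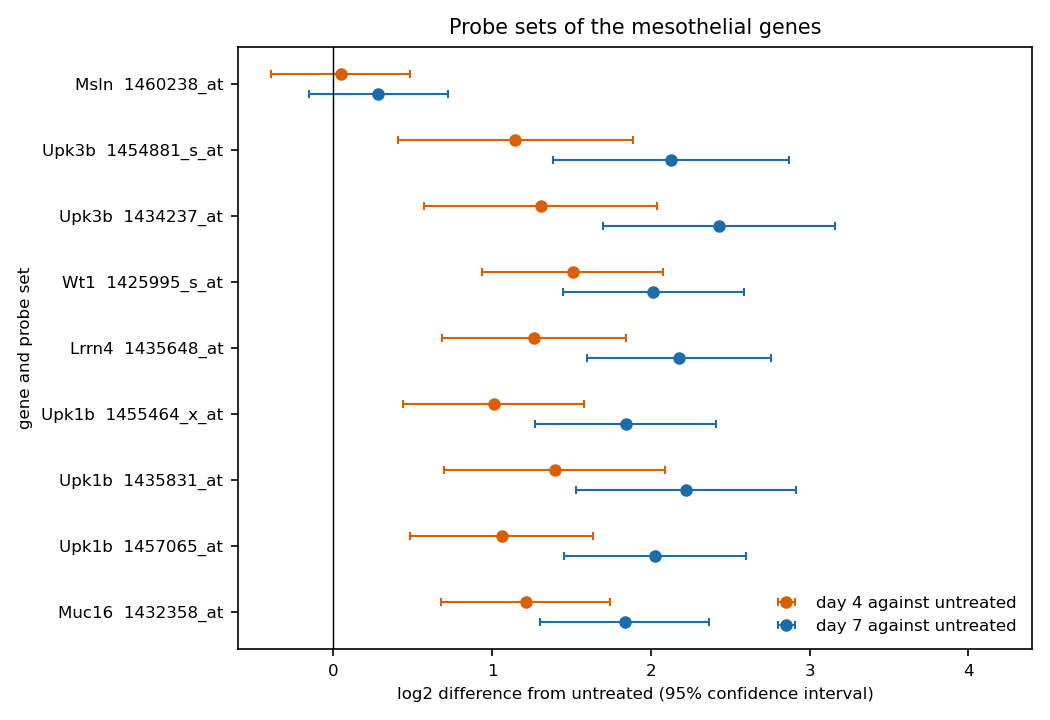
Log2 difference from untreated with its 95% confidence interval (horizontal axis) for 9 of the 10 probe sets of the mesothelial genes (vertical axis), at day 4 in orange and at day 7 in blue, from a limma fit over all single-symbol probe sets. The Upk1b probe set below the detection level on every untreated and day 4 array is not drawn, the interval of Msln spans 0, and the other 8 lie between 1.01 and 1.51 at day 4 and between 1.83 and 2.43 at day 7.

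Of the 8 probe sets that reached the detection level on every untreated array, 7 rose at day 4 and 7 at day 7, in a fit in which 38.5% and 30.1% of 17819 probe sets rose. Probe sets of 1 gene share their target and are not independent. At day 4 every array lay above every untreated array for 5 of the 6 genes, against 44.7% of all tested genes. At day 7 this held for the same 5, against 37.5% of all tested genes.

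Between day 4 and day 7 the rise went further for Lrrn4 and Upk1b, each read by its brightest probe set. Lrrn4 averaged 8.63 ± 0.32 at day 7 and 7.72 ± 0.30 at day 4 (SD, n = 3 each), a difference of 0.91 (SE 0.25, adjusted p = 0.0285 by limma). Upk1b averaged 6.97 ± 0.51 at day 7 and 6.14 ± 0.03 at day 4, a difference of 0.83 (SE 0.25, adjusted p = 0.0377). These were 2 of 6 genes, while 9.78% of all tested genes were higher at day 7, 17.6% were lower and 27.3% were called in either direction. Of the 8 probe sets detected on every untreated array 3 were higher, against 9.87% of all probe sets. The differences were 0.98 for Upk3b (adjusted p = 0.0536), 0.62 for Muc16 (0.0776), 0.51 for Wt1 (0.163) and 0.24 for Msln (0.388). Every day 7 array lay above every day 4 array for Upk3b, Wt1, Lrrn4 and Upk1b, against 17.9% of all tested genes. The calls of Upk1b and Upk3b depended on the probe set. The Upk1b probe set without the x_at mark and of nearly the same level also differed by 0.83. Its groups overlapped, and it did not pass (adjusted p = 0.0806 by limma). The other Upk3b probe set differed by 1.12 and passed (adjusted p = 0.0353 by limma). Without day 4 replicate 2 or 3, or day 7 replicate 2 or 3, 0 of the 6 genes passed by limma, although 4 had an unadjusted p under 0.05 with all arrays, and without day 4 replicate 1 only Lrrn4 did. The differences mostly stayed near their size in these smaller fits. Lrrn4 ranged from 0.75 without day 7 replicate 2 to 1.07 without day 7 replicate 1. Upk1b was 0.56 without day 7 replicate 2 and between 0.82 and 1.06 without any other irradiated array.

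Within groups, day 7 replicate 2 had the highest value for 6 of the 6 genes, and untreated replicate 3 and day 4 replicate 1 for 5 each. The exceptions were Msln, which was lowest on untreated replicate 3, and Wt1, which was lowest on day 4 replicate 1. Over the 9 arrays the Pearson correlation of a gene with the mean of the other 5 was 0.98 for Upk3b, 0.96 for Wt1, 0.96 for Lrrn4, 0.98 for Upk1b and 0.97 for Muc16, and 0.43 for Msln. These 9 points share the differences between the 3 groups and are given as a description.

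The 8 genes whose pattern over the 9 arrays was most like the mean of the 6 members, among 10931 other tested genes, were Nkain4, Hoxa5, Cybrd1, Wls, Fgf1, Gpm6a, Abcb1b and Zwint, with Pearson correlations between 0.979 and 0.985. A correlation of at least 0.95 was reached by 74 genes. Nkain4, which encodes a protein that interacts with the sodium pump, and Gpm6a, which encodes a membrane glycoprotein, also stood on the list of other mesothelial genes. Nkain4 read 5.91, 6.35 and 6.34 in untreated, 7.55, 7.06 and 7.32 at day 4, and 7.73, 7.99 and 7.76 at day 7. Gpm6a read 7.01, 7.54 and 8.05 in untreated, 9.52, 8.81 and 9.21 at day 4, and 9.81, 10.13 and 9.88 at day 7. In both genes each group lay above the one before it, as in the member mean. Both were chosen here for their likeness to that mean, so this order adds no support.

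The list of other mesothelial genes held 21 genes, of which 19 were tested. At day 4, 15 of them rose, beside 41.8% of all tested genes, 0 fell and 4 were not called, with a median difference of 1.11. At day 7, 14 rose, beside 32.1% of all tested genes, 0 fell and 5 were not called, with a median of 1.37. Calb2, the gene of the mesothelial marker calretinin, and Pkhd1l1 were below the detection level on all 9 arrays. Several genes on the list are also expressed by epithelium or fibroblasts, among them the keratins, Pdpn, Efemp1 and Sulf1.

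The largest rises on that list belonged to Efemp1, Bnc1, Gpm6a and Tbx18 at day 4 and to Gpm6a, Aldh1a2, Rspo1 and Cldn15 at day 7. Efemp1, which encodes the matrix protein fibulin-3, was 2.07 above untreated at day 4 (SE 0.21, adjusted p = 4.83e-05 by limma) and 1.74 at day 7. Bnc1, a zinc finger gene called basonuclin, averaged 8.99 ± 0.17 at day 4 and 7.10 ± 0.34 in untreated (difference 1.89, adjusted p = 2.01e-05). Tbx18, a T-box factor gene of the epicardium, differed by 1.64 at day 4 and 1.68 at day 7.

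Gpm6a differed by 1.65 at day 4 and 2.41 at day 7 (SE 0.26 each, adjusted p = 5.72e-04 and 1.4e-04 by limma). Aldh1a2, which encodes an enzyme of retinoic acid synthesis, differed by 1.02 at day 4 and 1.95 at day 7, Rspo1, a secreted enhancer of WNT signalling, by 1.54 and 1.89, and Cldn15, a tight junction gene, by 1.16 and 1.77. Between the times only Nkain4 (0.52, adjusted p = 0.0425) and Krt8 (0.24, adjusted p = 0.0448) rose. Among the keratins, Krt19 differed by 0.85 and 0.71, Krt18 by 0.66 and 0.70, and Krt8 by 0.28 and 0.52, and all 3 rose at both times. Krt7 read 10.34 ± 0.04 at day 7 and 10.34 ± 0.33 in untreated. Has1, a hyaluronan synthase gene, read 6.32, 7.21 and 5.57 at day 7 and 2.64, 5.70 and 4.60 in untreated, a wide spread in which the difference of 2.05 did not pass (adjusted p = 0.0662).

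**Figure D3:**
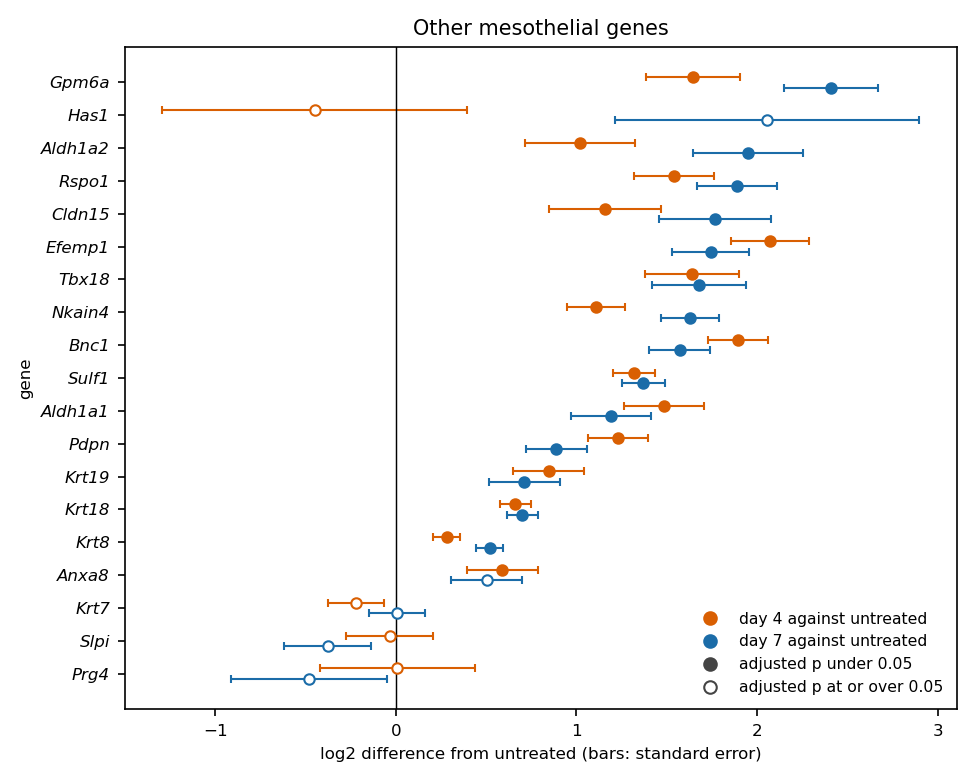
Log2 difference from untreated with its standard error (horizontal axis) for the 19 tested genes of the list of other mesothelial genes (vertical axis), at day 4 in orange and at day 7 in blue, with filled points for an adjusted p under 0.05. Filled points all lie right of 0, while Has1, Krt7, Slpi and Prg4 have open points at both times and Anxa8 at day 7.

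The gene families of the members did not follow them as a whole. Of the 6 uroplakin genes, only Upk1b and Upk3b were detected, and Upk1a, Upk2, Upk3a and Upk3bl stayed at or below 2.76 on all 9 arrays. Of 7 membrane mucin genes 6 were tested. At day 7 Muc16 rose and the other 5 fell, while 22.0% of all tested genes fell. Muc1, the mucin of many glandular epithelia, averaged 4.09 ± 0.30 at day 7 and 5.60 ± 0.83 in untreated (difference -1.50, adjusted p = 0.0089 by limma). Muc13 read 3.31, 4.21 and 3.15 at day 7 and 5.03, 5.92 and 4.00 in untreated, so that 1 day 7 array reached the detection level (adjusted p = 0.0313). Muc3, Muc4 and Muc15 were below the detection level on every day 7 array, at least 1.66-fold, 1.86-fold and 1.63-fold lower than in untreated. Replicate 3 was the lowest untreated array for each of these 5, and Muc1 read 4.65 there against 6.16 and 5.98. On that array Muc3 (3.92), Muc4 (3.99) and Muc15 (3.57) were themselves below the detection level, so only the other untreated arrays lay above it. At day 4 only Muc16 rose and only Muc3 fell (adjusted p = 0.0445), with 3.81, 4.31 and 2.80 at day 4 and overlapping values of 5.26, 5.01 and 3.92 in untreated. Muc20 was below the detection level on all arrays.

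Of the 5 leucine-rich repeat neuronal genes, Lrrn4, Lrrn3 and Lrrn4cl were tested, and Lrrn1 and Lrrn2 were too dim. Lrrn3 entered the test only through irradiated arrays, so its call is not counted here. It read 3.68, 3.71 and 2.82 in untreated, 4.86, 4.26 and 3.68 at day 4, and 3.79, 3.69 and 4.04 at day 7. Lrrn4cl, named for its similarity to Lrrn4, read 7.40 ± 0.39 at day 4 and 4.90 ± 0.54 in untreated (difference 2.49, SE 0.29, adjusted p = 1.07e-04 by limma). At day 7 its difference from untreated was 1.71. The day 7 level of Lrrn4cl was below that of day 4 by a difference that did not pass (-0.78, adjusted p = 0.0801), while Lrrn4 rose between the same days.

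Of 13 partners and targets of WT1 10 were tested, and at day 7 6 rose and 3 fell (median 0.63). Of all tested genes 32.1% rose and 22.0% fell at day 7, and 41.8% rose and 21.4% fell at day 4. Podxl, which encodes podocalyxin of the podocyte and endothelial surface, differed by 3.41 (SE 0.47, adjusted p = 4.17e-04 by limma), Spry1 by 0.92 and Wnt4 by 0.91. Basp1, a corepressor that binds WT1, differed by -0.92, and Wtap, named for its binding to WT1, by -0.31. At day 4, 6 rose, with Podxl at 1.32, Bmp7 at 1.08 and Spry1 at 0.98, and Cited2 (-0.99) and Wtap (-0.40) fell. Podxl stands among genes of endothelium too, and the mean of 9 endothelial genes ran from 7.65 to 7.73 at day 7, against 4.41 to 6.25 in untreated. The part of endothelial cells in the Podxl value was not tested. Of 7 tested factors of epithelial to mesenchymal transition 6 rose at day 4 and 5 at day 7, with Zeb2 at 2.08 and 1.81, Twist1 at 2.01 and 1.57, and Prrx1 at 1.92 and 1.31. Cdh2, the gene of N-cadherin, rose at day 4 (0.91), and Vim, that of vimentin, differed by 1.07 at day 7. These are also genes of fibroblasts.

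Fibroblast genes rose in the same samples, in which 41.8% of all tested genes rose at day 4 and 32.1% at day 7. Of 10 fibroblast genes 9 rose and 1 fell at day 4 (median 1.28), and 8 rose and 1 fell at day 7 (median 0.74). The gene that fell was Thy1, a surface protein gene of fibroblasts that thymocytes also express in abundance, with differences of -2.61 at day 4 and -1.37 at day 7. Of 6 tested genes of capsular and adventitial fibroblasts 5 rose at day 4 (median 1.67) and 4 at day 7 (median 1.04). The mean of the fibroblast list was 10.15 to 10.59 before irradiation, 11.06 to 11.57 on day 4 arrays and 10.85 to 11.21 on day 7 arrays. When each array was centred on that list, 0 of the 6 mesothelial genes were higher at day 4 and Msln was lower (-0.90, adjusted p = 0.00291 by limma). Of all 10937 tested genes, 548 were then higher and 6683 lower at day 4, and 539 higher and 5796 lower at day 7. At day 7 the centred values of Upk3b, Wt1, Lrrn4, Upk1b and Muc16 still rose, by 1.42, 1.31, 1.47, 1.13 and 1.13. Leaving Thy1 out of the list, an alternative chosen after seeing the data, raised its mean difference at day 4 to 1.35, against 0.95 with it. On that scale the day 4 differences were 0.16 for Wt1, -0.20 for Upk3b, -0.082 for Lrrn4, -0.34 for Upk1b and -0.13 for Muc16, of which 0 passed by limma, and -1.30 for Msln, which fell (adjusted p = 4.83e-05). At day 7 the same 5 genes rose, by 0.90 for Muc16 to 1.24 for Lrrn4, and Msln fell (-0.65, adjusted p = 0.0285). Without Thy1, 232 of 10937 tested genes were higher and 8615 lower at day 4, and 331 higher and 7530 lower at day 7.

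Other stromal lists differed in their course. Their counts stand beside 41.8% of all tested genes that rose and 21.4% that fell at day 4, and 32.1% and 22.0% at day 7. The mean of the 6 mesothelial genes was 5.82 to 6.36 before irradiation, 6.97 to 7.35 on day 4 arrays and 7.55 to 8.23 on day 7 arrays. Cortical epithelial genes had medians of 0.31 at day 4 and 0.47 at day 7, and after centring on them 5 mesothelial genes were higher at each time. On that scale 2194 of 10937 tested genes were higher at day 4 and 1068 at day 7. Upk3b (adjusted p = 0.0492 by limma) and Upk1b (0.043) lay close to the threshold at day 4. Adipocyte genes, of which 3 of 5 rose at day 4 and 2 at day 7, had a mean of 6.69 to 7.11 before irradiation, 7.56 to 9.998 on day 4 arrays and 7.35 to 8.70 on day 7 arrays. Among these 5, Cidea and Ucp1 entered the test only through irradiated arrays, so a call of either adds no support. Day 4 replicate 1, the highest of its group for 5 of the 6 mesothelial genes, also had the highest adipocyte mean, 9.998, against 7.56 and 8.32 on the other day 4 arrays. Day 7 replicate 2, the highest for all 6, likewise had the highest adipocyte mean, 8.70, against 7.95 and 7.35. Untreated replicate 3, the highest for 5 of the 6, had the lowest adipocyte mean of its group, 6.69. This low mean rested on values below the detection level, Cidea at 2.27, against 3.28 and 3.38, and Adipoq at 3.90. On that array Fabp4 (12.68) was the highest of its group, and Lpl (11.75) lay between the other untreated arrays. The order of the untreated arrays by adipocyte signal was thus not settled. The part of adipocytes in the mesothelial values was not tested. Of 9 endothelial genes 4 rose at day 4 and 9 at day 7. Of 9 medullary epithelial genes 1 rose and 3 fell at day 4, and 1 rose and 8 fell at day 7, while 7 of 7 genes of keratinising epithelium fell at both times. Of 8 genes of pericytes and smooth muscle 3 rose and 3 fell at day 4, and 3 rose at day 7. Of 4 macrophage genes 1 rose and 2 fell at each time, and 2 of 2 parathyroid genes rose at both.

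**Figure D4:**
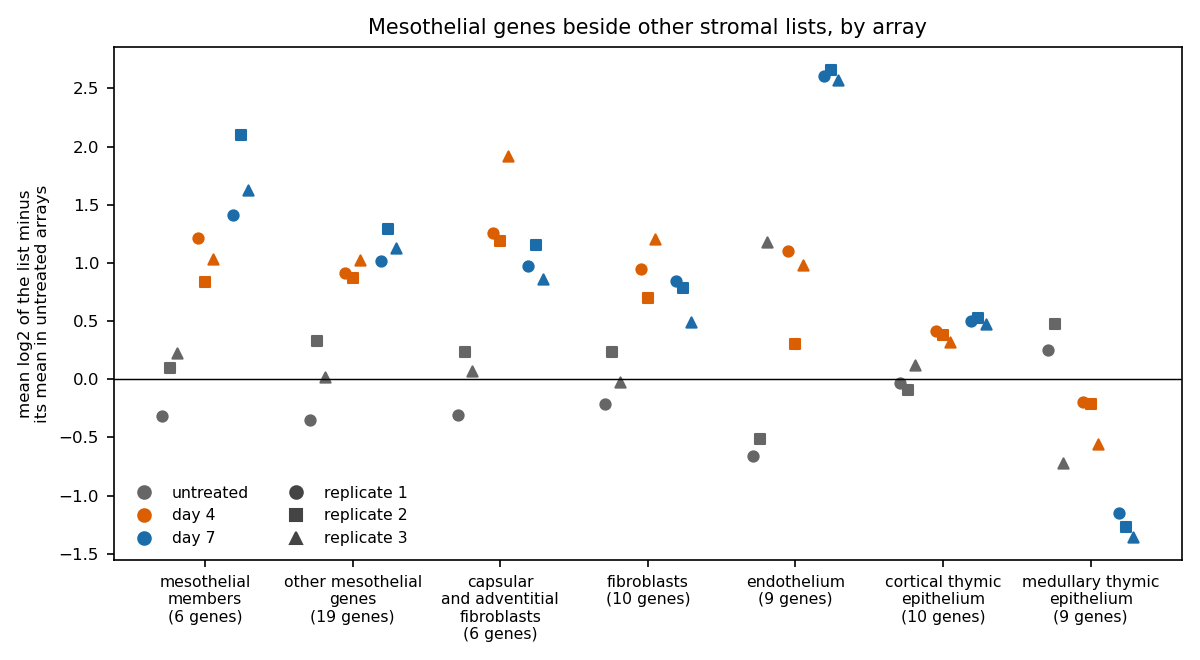
Mean log2 level of 7 gene lists on each array minus the mean of the untreated arrays (vertical axis), with untreated in grey, day 4 in orange and day 7 in blue and the replicate shown by the marker. The mesothelial genes lie highest at day 7, with replicate 2 on top, whereas the 2 fibroblast lists lie highest at day 4 on replicate 3.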

How the data were processed

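The authors deposited log2 values of the 9 arrays, computed with GCRMA per the submitters' processing notes. GCRMA corrects background by probe sequence, normalizes arrays and summarises probes, and the sources used here give neither its version nor its settings. The log2 scale was read from the values, which ran from 2.27 to 15.52, so differences of dim genes are compressed. Scanner output was not used here. Of 45101 probe sets, 34945 had 1 gene symbol, 932 several and 9160 none, and 64 were controls. Each gene was read by its probe set with the highest mean over 9 arrays and tested where at least 3 arrays reached 4, which left 10937 of 18193 genes.

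Group means were fitted over all 9 arrays in limma 3.58.1 (lmFit, eBayes, R 4.3.3), with Benjamini-Hochberg adjustment over all tested genes. The procedure was first run on simulated data with independent noise, in which few genes changed, equally up and down. That run does not cover data in which as many genes change as here. Figures used matplotlib 3.10.9 in Python 3.11. Precision is limited by there being 3 arrays a group. The members, the 17 other gene lists and the tests were chosen with earlier results of these data known. Genes named were all members, all members of the 3 gene families, up to 4 called genes of each related list by size, and the 8 genes most like the member mean, while single genes of other lists appear where a result turned on them. Krt7, Krt18, Krt19, Has1, Wtap and Thy1 were named after their values were seen. Alternatives changed the filter, the probe set rule, the variance model, array weights, normalization, centring, the arrays in the fit and a replicate block.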

Additional observations from a re-analysis of the deposited data

Results flagged for a closer look

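Lrrn4 and Upk1b were marked because their differences from untreated were not the same at the 2 times, by limma's test of day 7 against day 4. The difference between the times was 0.914 for Lrrn4 and 0.832 for Upk1b on the log2 scale. For Upk1b this held for its brightest probe set, while another of nearly the same level did not pass (adjusted p = 0.0806 by limma). Groups of 3 arrays were too small for a check for outlying samples.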

How the results depend on the processing

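Of 396 single-gene values under alternatives, 352 kept their direction and their side of the threshold. The 5 rises at day 7 against untreated were called under all 22 alternatives, with differences from 0.90 to 2.64. At day 4, 4 to 5 genes were called in all alternatives but centring on the fibroblast list with or without Thy1, where 1 gene was called, Msln, as lower. At day 7 against day 4, 2 genes were called in the main setting and 0 without a filter on dim genes, and leaving out 1 array gave 0 to 3. With centring on fibroblasts 4 were called, all higher, beside 838 of 10937 tested genes that were higher. Without Thy1 in that list these counts were 5 and 1304. On these 2 scales the median of all genes between the times moved by 0.24 and 0.41. The Msln difference turned at day 4 to -0.33 with centring on cortical epithelium, -0.90 on fibroblasts, -0.060 on the tested genes and -0.15 without untreated replicate 3 (leaving out 1 array gave -0.15 to 0.21), and at day 7 against untreated to -0.22 and -0.42 with the first 2 of these. Centring on fibroblasts without Thy1, added after seeing the data, turned the day 4 differences of Msln to -1.30, Upk3b to -0.20, Lrrn4 to -0.082, Upk1b to -0.34 and Muc16 to -0.13, and the day 7 difference of Msln to -0.65. The cause was not tested. Centring on fibroblasts moved the median of all genes by -0.95 at day 4 and -0.71 at day 7 (-1.35 and -0.94 without Thy1), and that on cortical epithelium by -0.37 and -0.50. Of the called genes, 66.1% at day 4 and 59.3% at day 7 were higher in the main setting, 7.58% and 8.51% with centring on fibroblasts (2.62% and 4.21% without Thy1), and 34.7% and 15.4% on cortical epithelium. Between the times this share was 35.8%, and 71.3% on fibroblasts (84.3% without Thy1), 21.3% on cortical epithelium and 47.5% on the tested genes. Over all genes, 2991 were called between the times, 1176 with centring on fibroblasts, 1546 with that without Thy1, 1905 without day 4 replicate 2 and 1760 without day 7 replicate 2. With every probe set tested alone, 10933 were called at day 4 and 9350 at day 7, against 6916 and 5915 genes. Deviations from the group mean were weakly correlated between same-numbered samples (correlations from -0.12 to 0.18). With 3 arrays a group, this cannot decide whether the numbers pair the samples. With the replicate block 5, 5 and 2 genes were called in the 3 comparisons.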
